A study of Mus musculus with 114 samples.

Results

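Leukocyte integrins are the adhesion receptors by which white blood cells hold on to vessel walls, matrix and each other, and 8 of their genes were followed in RNA of the adipocyte fraction of perigonadal white adipose tissue (PGWAT). The 8 genes were chosen by name as the subunits that are largely restricted to leukocytes, namely Itgal, Itgam, Itgax, Itgad, Itgb2, Itga4, Itgae and Itgb7, and they were all listed among the 29132 genes measured. Male C57BL/6J mice were fed chow (CD) or a high fat diet (HFD), starting at an age of 6 weeks. They carried no named allele and received no other agent. The feeding lasted 8, 20 or 34 weeks, which gave 6 groups of 6 mice each, except for 8 mice in the CD group at 34 weeks. Adipocytes were the cells that floated after collagenase digestion of the fat pad. The fraction was read in bulk, in which fewer cells of a type and less RNA per cell cannot be told apart. Mice that were longer on a diet were also older, so that time on the diet and age cannot be told apart, and the labels give no batch. Chow was either of 2 control diets, and the labels do not tie them to mice.

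An integrin is a pair of an alpha and a beta subunit. Itgb2 (CD18) is the shared beta subunit of Itgal (CD11a, giving LFA-1), Itgam (CD11b, giving Mac-1), Itgax (CD11c) and Itgad (CD11d), whereas Itga4 pairs with Itgb1 or Itgb7 and Itgae (CD103) pairs with Itgb7. Inside-out signals through talin and kindlin-3 open the receptors, which then bind ICAMs, VCAM-1, complement fragments, fibrinogen or E-cadherin. In adipose tissue, CD11c is the customary marker of the macrophages that gather around dying adipocytes in obesity, and CD103 is known from tissue resident T cells and a subset of dendritic cells.

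Itgam, Itgax and Itgad lie side by side on the plus strand of chromosome 7 of GRCm38, at chr7:128062640-128118491, chr7:128129526-128150657 and chr7:128173933-128205504, and Itgal lies apart from them on that chromosome at chr7:127296139-127335137. The other genes are Itgb2 (chr10:77530329-77565708), Itga4 (chr2:79255426-79333114), Itgae (chr11:73090505-73147449) and Itgb7 (chr15:102215994-102233405). Promoter windows of 300 bases, from 250 bases before to 50 bases after an annotated start, were found for 4 of the 8 genes in RefSeq GRCm38.p6. They are shown because they are the start regions of genes that moved together with diet, and each is written 5′ to 3′ on the strand of the gene. The window of Itgb7 lies inside the gene span given above, at an annotated start downstream of the 5′ end of that span.
Itgam (chr7:128062390-128062689, plus strand): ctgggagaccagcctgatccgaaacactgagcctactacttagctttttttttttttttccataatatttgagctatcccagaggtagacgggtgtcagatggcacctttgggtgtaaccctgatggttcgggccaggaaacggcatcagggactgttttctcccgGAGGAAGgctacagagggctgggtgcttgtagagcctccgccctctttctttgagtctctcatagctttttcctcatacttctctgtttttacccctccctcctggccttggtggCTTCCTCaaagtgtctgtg
Itgax (chr7:128129300-128129599, plus strand): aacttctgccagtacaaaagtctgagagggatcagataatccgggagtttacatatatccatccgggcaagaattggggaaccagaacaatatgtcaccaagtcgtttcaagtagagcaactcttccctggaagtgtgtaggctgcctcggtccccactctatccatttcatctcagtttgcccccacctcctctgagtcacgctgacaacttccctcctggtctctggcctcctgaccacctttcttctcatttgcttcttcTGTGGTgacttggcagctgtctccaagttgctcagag
Itga4 (chr2:79255176-79255475, plus strand): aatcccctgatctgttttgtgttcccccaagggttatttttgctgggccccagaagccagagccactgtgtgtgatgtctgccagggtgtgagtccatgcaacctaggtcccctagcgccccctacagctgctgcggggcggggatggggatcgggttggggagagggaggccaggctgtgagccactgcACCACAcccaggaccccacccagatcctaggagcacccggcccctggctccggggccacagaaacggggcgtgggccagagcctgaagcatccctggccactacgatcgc
Itgb7 (chr15:102231886-102232185, minus strand): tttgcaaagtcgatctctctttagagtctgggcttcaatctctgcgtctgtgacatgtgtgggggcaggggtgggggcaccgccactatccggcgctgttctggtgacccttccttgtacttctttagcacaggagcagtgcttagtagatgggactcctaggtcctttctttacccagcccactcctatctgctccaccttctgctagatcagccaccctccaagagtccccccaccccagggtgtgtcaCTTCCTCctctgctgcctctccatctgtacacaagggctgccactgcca
Capitals mark matches on either strand to 3 motifs, which were GAGGAAG (the core bound by PU.1, a master factor of myeloid cells), TGTGGT (a core bound by RUNX factors) and TATAAA (the TATA box). Itgam held GAGGAAG starting 84 bases before the start and again, on the other strand, 31 bases after it, and Itgb7 held it on the other strand from 1 base after the start. Itgax held TGTGGT from 13 bases after the start, and Itga4 held it on the other strand from 60 bases before the start. None of the 4 windows held TATAAA. Of all 32851 promoter windows of the same length, 13.6% held GAGGAAG, 16.8% held TGTGGT and 13.6% held TATAAA on either strand, so that each of these matches is common.

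Each mouse had between 9275711 and 15480388 reads on genes. Depth differed between the groups. At 8 weeks CD mice had 10562845 to 12611013 reads and HFD mice 13201234 to 15480388, without overlap. Every mouse at 34 weeks had fewer reads than every mouse at 20 weeks. Values are CPM, the reads of a gene scaled to a library total of 1000000, and a single read was worth 0.0646 to 0.108 CPM. All 8 integrin genes had at least 1 read in every mouse. Of the 8, 7 passed the filter on low values, a mean log2(CPM + 1) above 2.0, and were tested with limma among 10343 genes. Itgal did not pass and was examined alone. The defining adipocyte genes were abundant in all mice, with Adipoq (adiponectin) between 2068 and 6653 CPM and Plin1 (perilipin) between 666 and 2188 CPM. The summed adipocyte list had a median of 36357 CPM in CD mice and 26789 CPM in HFD mice at 20 weeks. The common leukocyte gene Ptprc (CD45) was read in every mouse and rose from a mean of 34.4 ± 24.6 CPM (SD, n = 6) in CD to 213 ± 55.0 CPM (SD, n = 6) in HFD mice at 20 weeks. Among 11 macrophage genes, none was at 0 throughout a group, and their summed CPM ran from 451 to 1747 in CD mice and from 1146 to 3148 in HFD mice at 8 weeks. The sums ran from 1067 to 3440 and from 4464 to 9076 at 20 weeks, and from 1214 to 12721 and from 5148 to 15474 at 34 weeks. The 10 T cell genes summed to between 0.408 and 5.57 CPM and the 5 NK cell genes to at most 0.836 CPM. The 5 mast cell genes summed to 1.15 to 8.43 CPM in CD and 2.05 to 5.88 CPM in HFD mice at 8 weeks. Their sums were 3.50 to 9.57 and 17.0 to 54.2 CPM at 20 weeks, and 1.96 to 83.2 and 19.3 to 106 CPM at 34 weeks. Of these 5 genes 1 was tested, which was not called by diet at any time, and their part in the integrin values was not tested. The 7 dendritic cell genes summed to 18.9 to 434 CPM, and of the 2 tested 1 was called higher at 8 weeks and 1 lower at 20 weeks. The 5 endothelial genes summed to 22.5 to 336 CPM and were called higher in 5, 4 and 5 cases at 8, 20 and 34 weeks, and their part in the integrin and ligand values was not tested. Cd8b1 was at 0 in 4 of the 6 groups. Of the 6 neutrophil genes Ly6g had no read in any mouse, but the list summed to 2.18 to 44.7 CPM. Of its 2 tested genes, 1 was called higher by diet at 8 weeks and 0 at 20 and 34 weeks.

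**Figure D1:**
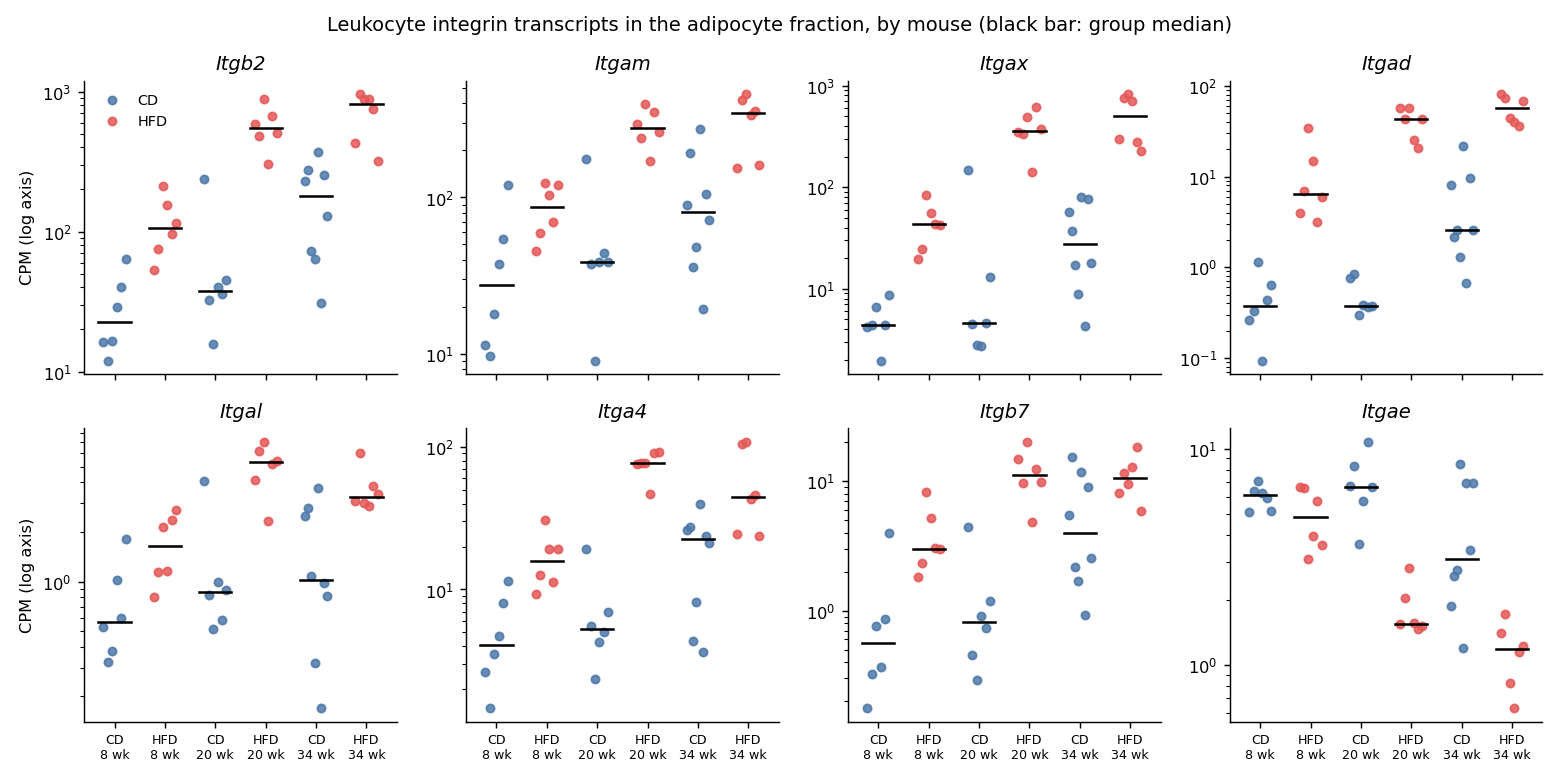
CPM of the 8 leukocyte integrin genes on log axes in each mouse (points) of the CD and HFD groups at 8, 20 and 34 weeks, with black bars at the group medians. Itgae is the gene whose HFD points lie lowest, at 1.46 to 2.81 CPM at 20 weeks, whereas the other 7 genes have their higher points in the HFD groups.

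At 20 weeks, all 7 tested genes differed between the diets. Itgax, Itgad, Itgb2, Itga4, Itgam and Itgb7 were upregulated in HFD mice and Itgae was downregulated, where 38.3% of all tested genes were called higher and 18.7% lower (limma, Benjamini-Hochberg adjusted over the tested genes, threshold 0.05). At 8 weeks the same 6 genes were upregulated and Itgae was not called (29.8% of tested genes higher, 15.1% lower), and at 34 weeks 6 genes were again up and Itgae down (27.5% higher, 15.7% lower). The median difference of the 7 genes was 1.63, 3.44 and 1.89 on the log2(CPM + 1) scale at 8, 20 and 34 weeks, beside 0.11, 0.14 and 0.07 for all tested genes. Folds given here are on this scale and understate the change of genes with low CPM, and they compare means of logs rather than mean CPM. Without mouse 1 of the 20-week CD group, which stood apart, the 20-week count remained at 7 genes.

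Itgb2, the beta subunit without which none of the CD11 chains reaches the cell surface, had the highest mean level of the 8 genes per kilobase of exon in every group. It was read at 11.9 to 64.2 CPM (median 22.7) in 8-week CD mice and at 52.9 to 213 CPM (median 106) in HFD mice. At 20 weeks the range was 15.8 to 238 CPM (median 37.9) in CD and 303 to 879 CPM (median 547) in HFD mice, and at 34 weeks it was 30.9 to 370 CPM (median 180) in CD and 319 to 956 CPM (median 821) in HFD mice. The diets did not overlap at 20 weeks (26.1% of tested genes in this direction), and at the other times 5 of 6 HFD mice exceeded every CD mouse. The increase was 2.04 ± 0.53 (log2, SE; adjusted p = 0.0024), 3.57 ± 0.53 (adjusted p = 1.2e-06) and 2.26 ± 0.49 (adjusted p = 6.1e-04) by limma at 8, 20 and 34 weeks.

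Itgax, the CD11c chain, was upregulated at each time, with the largest difference of the 7 genes on the log2(CPM + 1) scale. At 8 and 20 weeks that order depended on the scale, since Itgad had the larger difference with a pseudocount of 0.25 (3.66 against 3.06, and 5.73 against 5.33), edgeR (4.45 against 3.02, and 6.13 against 3.60) and DESeq2 (4.48 against 3.04, and 6.20 against 3.66). It was read at 1.95 to 8.64 CPM (median 4.40) in 8-week CD mice and at 19.7 to 83.8 CPM (median 42.9) in HFD mice, with no overlap. The diets did not overlap at 34 weeks either, when CD mice had 4.32 to 80.7 CPM (median 27.3) and HFD mice 228 to 819 CPM (median 503). Full separation in this direction held for 15.7% of tested genes at 8 weeks and 1.47% at 34 weeks. At 20 weeks, 5 CD mice had 2.75 to 13.0 CPM and mouse 1 of the group had 146 CPM, while HFD mice had 140 to 608 CPM (median 360), so that the diets overlapped through this mouse alone. The differences were 2.86 ± 0.66 (7.28-fold; adjusted p = 9.4e-04), 5.15 ± 0.66 (35.5-fold; adjusted p = 1.9e-07) and 4.08 ± 0.62 (16.9-fold; adjusted p = 1.7e-05) by limma. The 20-week difference was smaller with edgeR (3.60) and DESeq2 (3.66) on the recovered reads, and it was 5.93 ± 0.55 by limma without mouse 1. The same mouse had 238 CPM of Itgb2 and 175 CPM of Itgam, the highest of its group, whereas its Itgad of 0.770 CPM and its Itgae of 6.72 CPM lay within the range of the other 5 mice.

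Itgad, the CD11d chain of tissue macrophages, was close to the detection limit in young CD mice and abundant on the HFD. CD mice had 0.0926 to 1.14 CPM at 8 weeks and 0.294 to 0.832 CPM at 20 weeks, which is 1 to 12 and 4 to 11 reads. HFD mice had 3.17 to 34.7 CPM (median 6.45) at 8 weeks, 20.6 to 57.6 CPM (median 42.8) at 20 weeks and 36.1 to 80.5 CPM (median 56.3) at 34 weeks, when CD mice reached 0.677 to 21.8 CPM (median 2.56). The diets did not overlap at any time, which held for 15.7%, 26.1% and 1.47% of all tested genes in this direction at 8, 20 and 34 weeks. The differences were 2.68 ± 0.46 (adjusted p = 3.7e-05), 4.72 ± 0.46 (adjusted p = 5.3e-09) and 3.49 ± 0.43 (adjusted p = 1.4e-06) by limma.

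Itgam, the CD11b chain that macrophages, monocytes and neutrophils share, overlapped between the diets at every time. CD mice had 9.62 to 120 CPM (median 27.7), 8.98 to 175 CPM (median 38.7) and 19.4 to 275 CPM (median 81.0) at 8, 20 and 34 weeks, and HFD mice had 45.5 to 124 CPM (median 87.1), 170 to 396 CPM (median 280) and 154 to 457 CPM (median 348). The differences were 1.49 ± 0.57 (adjusted p = 0.032), 2.75 ± 0.57 (adjusted p = 1.1e-04) and 1.89 ± 0.53 (adjusted p = 0.0048) by limma. The 8-week call was lost when any of 6 mice was left out (adjusted p up to 0.095), namely mice 1, 2 and 3 on CD and mice 3, 4 and 6 on HFD. It was also lost with edgeR (adjusted p = 0.17) and DESeq2 (adjusted p = 0.14) on the recovered reads.

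Itga4, which carries monocytes and lymphocytes to VCAM-1, was upregulated at each time, and without overlap at 20 weeks (26.1% of tested genes in this direction). CD mice had 1.47 to 11.5 CPM (median 4.11), 2.35 to 19.2 CPM (median 5.28) and 3.64 to 39.6 CPM (median 22.5) at 8, 20 and 34 weeks. HFD mice had 9.36 to 30.6 CPM (median 16.0) at 8 weeks and 46.6 to 91.7 CPM (median 76.5) at 20 weeks, above all CD mice, and 23.6 to 108 CPM (median 44.5) at 34 weeks. The differences were 1.63 ± 0.48 (adjusted p = 0.0070), 3.44 ± 0.48 (adjusted p = 6.5e-07) and 1.66 ± 0.45 (adjusted p = 0.0040) by limma.

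Itgb7, the beta subunit that Itga4 and Itgae share and that directs lymphocytes to the gut, was a low transcript. CD mice had 0.176 to 3.96 CPM (median 0.564), 0.294 to 4.41 CPM (median 0.824) and 0.931 to 15.4 CPM (median 3.99) at the 3 times, and HFD mice had 1.80 to 8.27 CPM (median 3.01), 4.82 to 20.1 CPM (median 11.1) and 5.87 to 18.3 CPM (median 10.5). The diets did not overlap at 20 weeks (26.1% of tested genes in this direction), whereas 1 of 6 HFD mice exceeded every CD mouse at 34 weeks. The differences were 1.33 ± 0.44 (adjusted p = 0.015), 2.55 ± 0.44 (adjusted p = 1.2e-05) and 1.06 ± 0.41 (adjusted p = 0.037) by limma. The 8-week call was lost without mouse 3 on HFD (adjusted p = 0.051). The 34-week call was lost when any of 8 mice was left out, mice 3, 4, 6 and 8 on CD and mice 2 to 5 on HFD, and with edgeR (adjusted p = 0.21) or DESeq2 (adjusted p = 0.23).

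Itgal, the CD11a chain of LFA-1 and the main integrin of lymphocytes, had a maximum of 7.07 CPM. CD mice had 0.326 to 1.82 CPM (median 0.565), 0.515 to 4.06 CPM (median 0.863) and 0.169 to 3.68 CPM (median 1.03) at 8, 20 and 34 weeks, and HFD mice had 0.802 to 2.73 CPM (median 1.65), 2.34 to 7.07 CPM (median 5.30) and 2.88 to 6.08 CPM (median 3.25). The diets overlapped at each time, and 3, 5 and 2 of the 6 HFD mice lay above all CD mice. The difference was 0.61, 1.48 and 1.01 on the log2(CPM + 1) scale, with two-sided exact permutation p of 0.035, 0.0043 and 0.0077, which are unadjusted. When genes with low values were kept in the limma fit, the adjusted p was 0.14, 1.7e-04 and 0.0072.

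Itgae, the CD103 chain, went the other way. CD mice had 5.11 to 7.10 CPM (median 6.07), 3.61 to 10.7 CPM (median 6.67) and 1.20 to 8.53 CPM (median 3.08) at 8, 20 and 34 weeks. HFD mice had 3.10 to 6.62 CPM (median 4.85), 1.46 to 2.81 CPM (median 1.55) and 0.629 to 1.71 CPM (median 1.19), the last of which is 7 to 20 reads. The diets overlapped at 8 weeks, every HFD mouse lay below every CD mouse at 20 weeks (11.1% of tested genes in this direction), and 3 of 6 HFD mice lay below all CD mice at 34 weeks. Full separation in this direction held for 7.14% of tested genes at 8 weeks and 0.986% at 34 weeks. The difference was -0.27 ± 0.26 (adjusted p = 0.40) at 8 weeks, -1.46 ± 0.26 (adjusted p = 1.8e-05) at 20 weeks and -1.13 ± 0.24 (adjusted p = 5.6e-04) at 34 weeks by limma. GENCODE vM21 places Haspin within the span of Itgae on the opposite strand, with no shared exon bases.

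**Figure D2:**
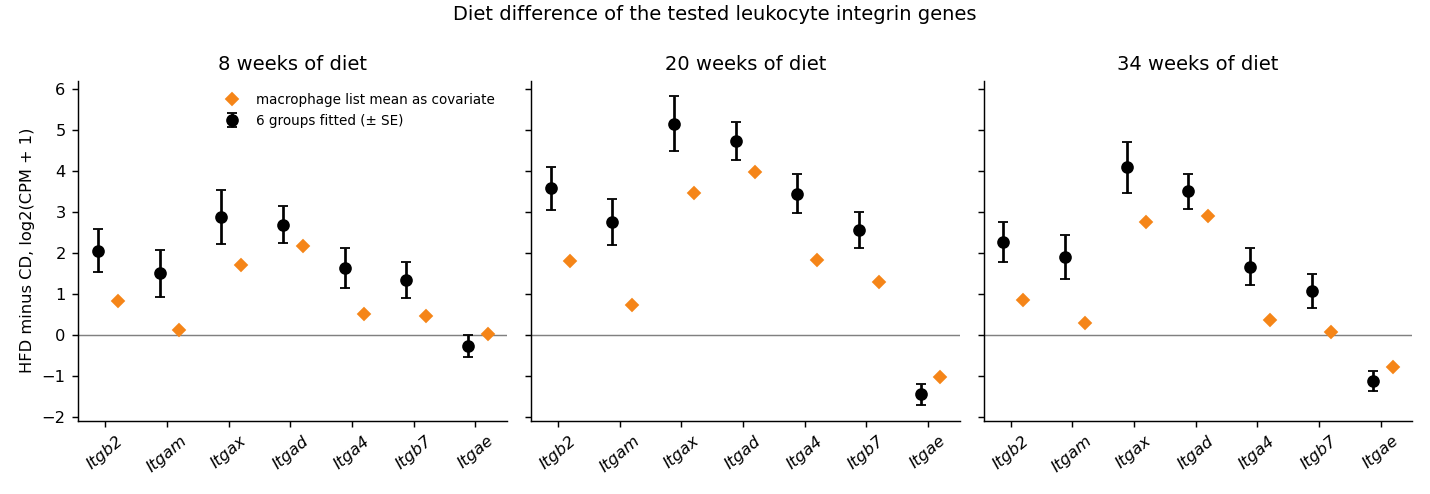
HFD minus CD difference of the 7 tested genes in log2(CPM + 1) at 8, 20 and 34 weeks, as fitted over the 6 groups (black points with SE) and with the mean of the macrophage list as a covariate (orange diamonds). At 20 weeks Itgax and Itgad stay at 3.45 and 3.98 with the covariate, and Itgam falls to 0.73.

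Of the 11 macrophage genes, 6, 7 and 9 were called higher at 8, 20 and 34 weeks, and 1, the scavenger receptor Cd163, was called lower at 20 weeks. A fit that held the mean of their log2(CPM + 1) as a covariate called fewer of the 7 genes at 8 and 34 weeks. At 8 weeks 3 genes remained (Itgax, Itgad and Itgb2), at 34 weeks 4 remained (Itgax, Itgad and Itgb2 up, Itgae down), and at 20 weeks all 7 were still called. The same fit called 38.0%, 36.2% and 12.5% of all tested genes in either direction at 8, 20 and 34 weeks, so that the 3 of 7 at 8 weeks was near the background. Itgad kept differences of 2.17, 3.98 and 2.90 with the covariate, and Itgax kept 1.70, 3.45 and 2.74. Itgam had 0.11 (adjusted p = 0.74), 0.73 (adjusted p = 0.021) and 0.29 (adjusted p = 0.43) by limma in the same fit. The covariate thus differed by diet itself, and the part of macrophage number in the integrin values was not tested.

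To set the integrins against the common leukocyte gene, each was expressed relative to Ptprc as a difference of log2(CPM + 1) within the mouse, and the diets were compared by two-sided exact permutation tests adjusted over 24 comparisons. Of these, 16 passed the threshold. Ptprc itself was called higher on HFD at each time, so that a gene unchanged by diet would also lose against it. The share of all tested genes that would pass the same ratio test was not computed. The ratio of Itgam to Ptprc gave no call, with diet differences of -0.25 (adjusted p = 0.43), -0.04 (adjusted p = 0.89) and -0.35 (adjusted p = 0.16) in the exact tests at 8, 20 and 34 weeks. Itgax gained on Ptprc by 1.12 (adjusted p = 0.015), 2.35 (adjusted p = 0.019) and 1.84 (adjusted p = 0.0080) in these exact tests. Its ratio was -0.79 ± 0.52 (SD, n = 8) in 34-week CD mice and 1.05 ± 0.24 (SD, n = 6) in HFD mice, and the p of 3.3e-04 before adjustment is the smallest that the exact test allows for these group sizes.

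Itgad gained on Ptprc by 1.93 at 20 weeks and 1.25 at 34 weeks (adjusted p = 0.018 for both, exact test). At 8 weeks the difference was 0.94 (adjusted p = 0.11, exact test), which with a pseudocount of 0.25 in place of 1 became 1.86 and passed (adjusted p = 0.022, exact test). Itgb2 gained 0.30 at 8 weeks (adjusted p = 0.049) and 0.77 at 20 weeks (adjusted p = 0.021) in the exact tests, but had a difference of 0.02 at 34 weeks (adjusted p = 0.89, exact test). The 8-week gain of Itgb2 was lost when any of 8 mice was left out (adjusted p up to 0.094, exact test), namely mice 2, 3 and 4 on CD and mice 1 to 5 on HFD. Itga4 gained 0.65 at 20 weeks (adjusted p = 0.0093) and lost 0.58 at 34 weeks (adjusted p = 0.019) against Ptprc in the exact tests. Itgb7 differed by -0.42 at 8 weeks (adjusted p = 0.17, exact test) and -0.25 at 20 weeks (adjusted p = 0.32, exact test), which did not pass, and lost 1.18 at 34 weeks (adjusted p = 0.018, exact test). Both earlier values turned positive with a smaller pseudocount. Itgal lost 1.13, 1.31 and 1.22 (adjusted p = 0.0093, 0.0093 and 0.019, exact test). With a pseudocount of 0.25 in place of 1 its differences shrank to -0.81, -0.84 and -0.80 (adjusted p = 0.022, 0.019 and 0.076, exact test), and the last did not pass. Itgae lost 2.02, 4.25 and 3.37 (adjusted p = 0.019, 0.0093 and 0.0093, exact test), the largest shifts of the 8 genes. Its own difference at 8 weeks was -0.27 and not called (adjusted p = 0.40, limma), while Ptprc rose.

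**Figure D3:**
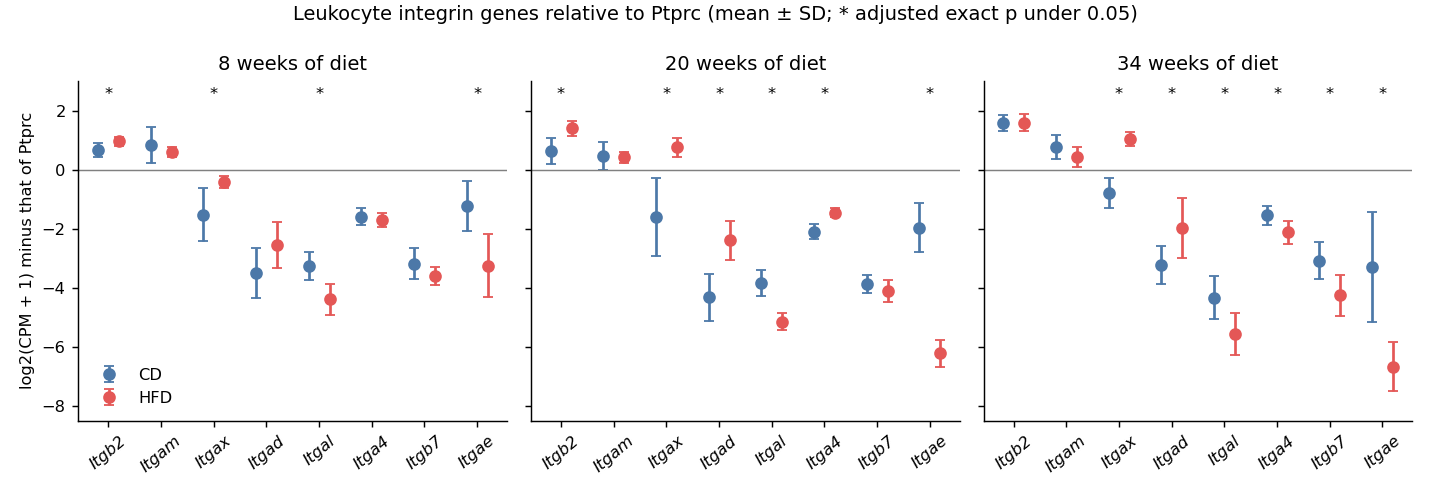
Difference of log2(CPM + 1) between each of the 8 genes and Ptprc in CD and HFD mice at 8, 20 and 34 weeks, as mean and SD over mice (n = 6, or 8 in 34-week CD mice), with an asterisk where the exact permutation test passed after adjustment over 24 comparisons. Itgae drops from -1.97 in CD to -6.22 in HFD mice at 20 weeks, while Itgam stays at 0.46 and 0.42.

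Ratios between subunits that pair, or that share a partner, were compared in the same way. Of 24 ratios by time, 14 passed the exact permutation test after adjustment. The share of other gene pairs that would pass this test was not computed, so the count has no background beside it. Itgax to Itgam, the ratio of CD11c to CD11b, went from -2.07 ± 1.20 (SD, n = 6) in CD to 0.33 ± 0.35 in HFD mice at 20 weeks and from -1.56 ± 0.75 (SD, n = 8) to 0.64 ± 0.53 (n = 6) at 34 weeks. The differences were 2.39 (adjusted p = 0.013) and 2.19 (adjusted p = 0.0074), whereas the 8-week difference of 1.37 did not pass (adjusted p = 0.058, exact test for each). It passed with the pseudocount of 0.25 (1.53, adjusted p = 0.038, exact test) and without CD mouse 1, 2 or 3 (adjusted p down to 0.022). Itgax to Itgb2 rose by 1.58 at 20 weeks (adjusted p = 0.019, exact test) and 1.82 at 34 weeks (adjusted p = 0.0074, exact test). Itgam to Itgb2 fell by 0.81 at 20 weeks (adjusted p = 0.0074, exact test). Itgal to Itgb2 fell by 1.43, 2.09 and 1.25 at the 3 times (adjusted p = 0.0074, 0.0074 and 0.016, exact test). With the pseudocount of 0.25 its differences shrank to -1.10, -1.61 and -0.81 (adjusted p = 0.019, 0.0087 and 0.049, exact test). Itgad to Itgb2 passed at 34 weeks, with a rise of 1.23 (adjusted p = 0.025, exact test), but not without mouse 1 or mouse 6 on HFD (adjusted p up to 0.059). Its differences of 0.64 at 8 weeks and 1.15 at 20 weeks did not pass (adjusted p = 0.21 and 0.055, exact test). With the pseudocount of 0.25 it passed at all 3 times, at 1.57, 2.13 and 1.55 (adjusted p = 0.037, 0.017 and 0.013, exact test), and at 20 weeks it also passed when any of 5 mice was left out, mice 1, 2 and 3 of the 8-week CD group, mouse 3 on CD and mouse 5 on HFD.

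Of the partners outside the Itgb2 family, Itgae to Itgb7 fell by 1.60, 4.01 and 2.19 (adjusted p = 0.025, 0.0074 and 0.030, exact test). The 8-week fall was lost without mouse 4 on CD or mouse 3 on HFD, and the 34-week fall without mouse 4 or mouse 5 on HFD (adjusted p up to 0.055, exact test). Itga4 to Itgb1, its broadly expressed partner, rose by 2.41 at 20 weeks (adjusted p = 0.0074, exact test) with differences of 0.88 at 8 weeks (adjusted p = 0.068) and 1.04 at 34 weeks (adjusted p = 0.073, exact test). Itga4 to Itgb7 rose by 0.89 at 20 weeks (adjusted p = 0.016, exact test), which with the pseudocount of 0.25 became 0.40 (adjusted p = 0.18, exact test). Ratios that passed only when 1 mouse was left out were, at 8 weeks, Itgax to Itgb2 (CD mouse 2 or 3), Itgam to Itgb2 (CD mouse 1 or 2 or HFD mouse 6), Itga4 to Itgb1 (CD mouse 6) and Itgb7 to Ptprc (CD mouse 4), and at 34 weeks Itgam to Itgb2 (CD mouse 1 or 7).

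Per kilobase of exon, the order of the levels changed with diet. In 8-week CD mice the order was Itgb2 (9.72 CPM per kb), Itgam (8.30), Itgae (1.30), Itgax (1.05), Itgb7 (0.388), Itga4 (0.380), Itgal (0.119) and Itgad (0.107). Itgb7 and Itga4, and likewise Itgal and Itgad, could not be ordered, since the first was above the second in 3 of 6 mice. In 20-week HFD mice the order was Itgb2 (187), Itgax (79.2), Itgam (57.1), Itgad (9.08), Itga4 (5.46), Itgb7 (4.30), Itgal (0.771) and Itgae (0.397), and each neighbour kept its place in at least 5 of 6 mice. Itgax was above Itgam per kilobase in 0 of the CD mice of any time and 0 of 6 HFD mice at 8 weeks, and in 5 of 6 HFD mice at 20 and at 34 weeks. Itgae was above Itgad per kilobase in 6 of 6 CD mice at 8 and 20 weeks and in 5 of 8 at 34 weeks, but in 2, 0 and 0 of 6 HFD mice. Exon lengths were those of GENCODE vM21, from 2770 bases of Itgb7 to 13978 bases of Itga4, and may differ from the lengths counted.

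With time on CD, no integrin gene passed the test between 8 and 20 weeks, and most were higher at 34 weeks. Between 8 and 20 weeks limma called 0 of 7 genes, with 0 at an unadjusted p under 0.05, 0 by edgeR and 1 by DESeq2 (3.58% of tested genes called in either direction). The differences ran from 0.04 to 0.82. At 34 against 8 weeks 6 genes were higher and Itgae was lower (40.1% of tested genes higher, 24.6% lower). Among them were Itgb2 at 2.39 ± 0.49 (adjusted p = 9.7e-05, limma) and Itgax at 2.23 ± 0.62 (adjusted p = 0.0022, limma). Itgad rose by 1.76 ± 0.43 (adjusted p = 6.4e-04, limma), and 7 of 8 34-week mice lay above all 8-week mice. Itgae fell by 0.57 ± 0.24 (adjusted p = 0.038, limma), a call that was lost when any of 9 mice was left out, mice 2 to 5 at 8 weeks and mice 1, 2, 3, 5 and 7 at 34 weeks. Itgam, which rose by 1.42 ± 0.53 (adjusted p = 0.020, limma), was lost without any of 3 mice, mouse 1 or 2 at 8 weeks or mouse 5 at 34 weeks. At 34 against 20 weeks, which shares the 34-week mice, 5 genes were higher and Itgae was lower (41.1% higher, 21.4% lower), and Itgam had a difference of 0.93 (adjusted p = 0.13, limma). Without mouse 1 of the 20-week CD group the count was 7. The rise of Itgax at 34 against 20 weeks, 1.43 ± 0.62 (adjusted p = 0.043, limma), was 0.27 with edgeR and 0.29 with DESeq2 (adjusted p = 0.74 and 0.72), and was lost when any of 8 mice was left out, mice 2 to 5 at 20 weeks and mice 1, 2, 5 and 7 at 34 weeks. Itga4, which rose by 1.18 ± 0.45 (adjusted p = 0.023, limma), was lost without mouse 3 at 20 weeks or mouse 5 at 34 weeks.

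On HFD, the integrin genes differed between 8 and 20 weeks and not, by the test, between 20 and 34 weeks. Of the 7 genes, 6 were higher and Itgae was lower at 20 against 8 weeks (21.2% of tested genes higher, 15.3% lower). Itgax rose by 3.08 ± 0.66 (adjusted p = 7.4e-04), Itgb2 by 2.34 ± 0.53 (adjusted p = 0.0011) and Itga4 by 2.17 ± 0.48 (adjusted p = 0.0010), and Itgae fell by 1.05 ± 0.26 (adjusted p = 0.0025), all by limma. For Itgax, Itgb2, Itgam and Itga4 every 20-week mouse lay above every 8-week mouse, and for Itgae every 20-week mouse lay below, which held for 15.0% and 9.63% of all tested genes. Between 20 and 34 weeks limma called 0 of 7 genes (30.2% of tested genes called in either direction), with 0 at an unadjusted p under 0.05 and 0 by edgeR and by DESeq2. The differences ran from -0.60 (Itga4) to 0.49 (Itgad). At 34 against 8 weeks the same 6 genes were higher and Itgae lower (31.7% higher, 20.8% lower), with Itgax at 3.45 ± 0.66 (adjusted p = 7.5e-05, limma) and Itgae at -1.43 ± 0.26 (adjusted p = 3.9e-05, limma). With the macrophage covariate these counts were 0 at 20 against 8 weeks and 2 (Itgad and Itgae) at 34 against 8 weeks, where the same fit called 5.46% and 17.7% of all tested genes. In CD mice they were 3 (Itgad, Itgb2 and Itgb7) at 34 against 20 weeks and 1 (Itgam, which was then lower by 0.84, adjusted p = 0.0055) at 34 against 8 weeks, where it called 63.1% and 53.3%.

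Whether the diet difference itself changed with time was tested by interaction terms, and none of the 7 genes passed in any of the 3 comparisons (4.49%, 10.5% and 28.8% of tested genes called in either direction at 20 against 8, 34 against 20 and 34 against 8 weeks). The counts at an unadjusted p under 0.05 were 5, 2 and 1 by limma, and edgeR called 1, 1 and 1 and DESeq2 1, 2 and 1. The terms nearest to the threshold were those of Itgae (-1.19 ± 0.37, adjusted p = 0.054) and Itgad (2.04 ± 0.65, adjusted p = 0.059) at 20 against 8 weeks, and of Itga4 (-1.79 ± 0.66, adjusted p = 0.075) at 34 against 20 weeks. Without mouse 1 of the 20-week CD group, limma called 5 genes at 20 against 8 weeks, namely Itgax at 3.06 ± 0.75 (adjusted p = 0.012), Itgad, Itgb2, Itga4 and Itgae. It called 2 at 34 against 20 weeks, Itga4 at -2.10 ± 0.65 (adjusted p = 0.026) and Itgb7 at -1.77 ± 0.59 (adjusted p = 0.039). The shares of all tested genes called without this mouse are not given here, so these counts have no background beside them. Leaving out any other single mouse gave 0 to 2 genes in each comparison.

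The genes that open integrins or relay their signals in leukocytes were mostly higher as well. Of 27 tested genes of this list of 28, 19 were higher and 0 lower at 8 weeks, 26 higher and 1 lower at 20 weeks, and 22 higher and 1 lower at 34 weeks, with medians of 1.21, 2.08 and 1.16. Of all tested genes, 29.8%, 38.3% and 27.5% were called higher at these times. Large rises at 20 weeks were those of the kinase Syk (3.26 ± 0.52, adjusted p = 4.1e-06) and the adaptor Fyb (2.97 ± 0.55, adjusted p = 3.0e-05) by limma. The fall was that of Itgb1bp1 (-0.92 ± 0.15, adjusted p = 8.4e-06, limma), which encodes ICAP-1, a protein that binds the tail of Itgb1 and restrains its activation. With the macrophage covariate the counts were 7 at 8 weeks and 6 at 34 weeks of 27, beside the 38.0% and 12.5% of all tested genes called in that fit. The 8-week count was thus under the share of all tested genes, and the 20-week count is not given here.

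Of 18 other integrin subunits 9 were tested, of which 6, 7 and 5 were higher at 8, 20 and 34 weeks and 0 were lower, with medians of 0.65, 0.86 and 0.50, beside the 29.8%, 38.3% and 27.5% of all tested genes called higher. The largest rises at 20 weeks were those of Itga5 (2.11 ± 0.45, adjusted p = 1.5e-04), the fibronectin receptor chain, Itga9 (1.99 ± 0.38, adjusted p = 4.3e-05) and Itgav (1.77 ± 0.26, adjusted p = 1.5e-06) by limma. Itgb1, the partner of Itga4 and of most other alpha subunits, was read at 232 to 416 CPM in 20-week CD mice and at 539 to 706 CPM in HFD mice. These ranges did not overlap (26.1% of tested genes in this direction), and the rise was 1.03 ± 0.13 (adjusted p = 1.9e-07, limma).

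Among the ligands, 8 of 18 were tested, and 5, 5 and 3 were higher and 0, 1 and 0 lower at 8, 20 and 34 weeks, with medians of 1.11, 1.11 and 1.05. Beside the 29.8%, 38.3% and 27.5% of all tested genes called higher, the count at 34 weeks was near the background. Icam1, the main ligand of LFA-1 and Mac-1, had 44.3 to 215 CPM in CD and 366 to 860 CPM in HFD mice at 20 weeks, without overlap (26.1% of tested genes in this direction). Its differences were 1.66 (adjusted p = 0.015), 2.89 (adjusted p = 4.8e-05) and 1.81 (adjusted p = 0.0057) by limma at 8, 20 and 34 weeks. Spp1 (osteopontin, a ligand of Itga4 and Itgav integrins) differed by 2.14 (adjusted p = 0.032) at 8 weeks and 4.95 (adjusted p = 6.1e-06) at 20 weeks by limma, and the 8-week call was lost without mouse 1, 2 or 4 on CD or mouse 2, 3, 4 or 6 on HFD. At 34 weeks it ran from 14.6 to 1298 CPM in CD and from 53.8 to 1025 CPM in HFD mice, and the difference of 1.16 did not pass (adjusted p = 0.22, limma) unless CD mouse 5 was left out (adjusted p = 0.042). The 34 against 20 week interaction term of Spp1 was -3.79 ± 1.12 (adjusted p = 0.026, limma). Fn1 (fibronectin) rose by 1.99 ± 0.55 (adjusted p = 0.0028, limma) at 20 weeks, and C3, whose fragment iC3b binds Mac-1, fell by 0.85 ± 0.35 (adjusted p = 0.037, limma), a call that was lost without mouse 1, 3, 4, 5 or 6 on CD or mouse 4, 5 or 6 on HFD.

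The counter-receptors of the remaining pairs gave no call when all mice were included. Vcam1, the ligand of Itga4, had differences of 1.00, 0.30 and 1.01 (adjusted p = 0.12, 0.64 and 0.088, limma), with 65.0 to 308 CPM in CD and 119 to 199 CPM in HFD mice at 20 weeks. It was called higher at 8 weeks without CD mouse 6 or HFD mouse 2 (adjusted p down to 0.033, limma) and at 34 weeks without CD mouse 5 (adjusted p = 0.014, limma). Cdh1 (E-cadherin), the ligand of the Itgae and Itgb7 pair, was not tested for its low values, with at most 0.740 CPM in any mouse and 0 reads in all 6 CD mice at 8 weeks, which allows up to 3 reads in each of them. With the macrophage covariate the ligand counts were 1, 3 and 0 of 8 at 8, 20 and 34 weeks, beside 38.0%, 36.2% and 12.5% of all tested genes.

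The 3 neighbours on chromosome 7 were compared with the genes around them. Of the further RefSeq genes within 100 kb of the interval from Itgam to Itgad, 17 were considered, of which 4 were tested. Pycard, the ASC adaptor of inflammasomes, was higher by 1.20 (adjusted p = 0.022), 2.21 (adjusted p = 4.8e-05) and 1.28 (adjusted p = 0.010) by limma at 8, 20 and 34 weeks. On the other side of Itgad, Armc5 differed by 0.23, 0.61 and 0.32, Tgfb1i1 by 1.22, 1.03 and 0.02, and Rusf1 by -0.02, -0.13 and -0.05. The values of Tgfb1i1 at 8 and 20 weeks and of Armc5 at 20 and 34 weeks passed. None of these 4 genes reached the differences of Itgax or Itgad at any time.

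**Figure D4:**
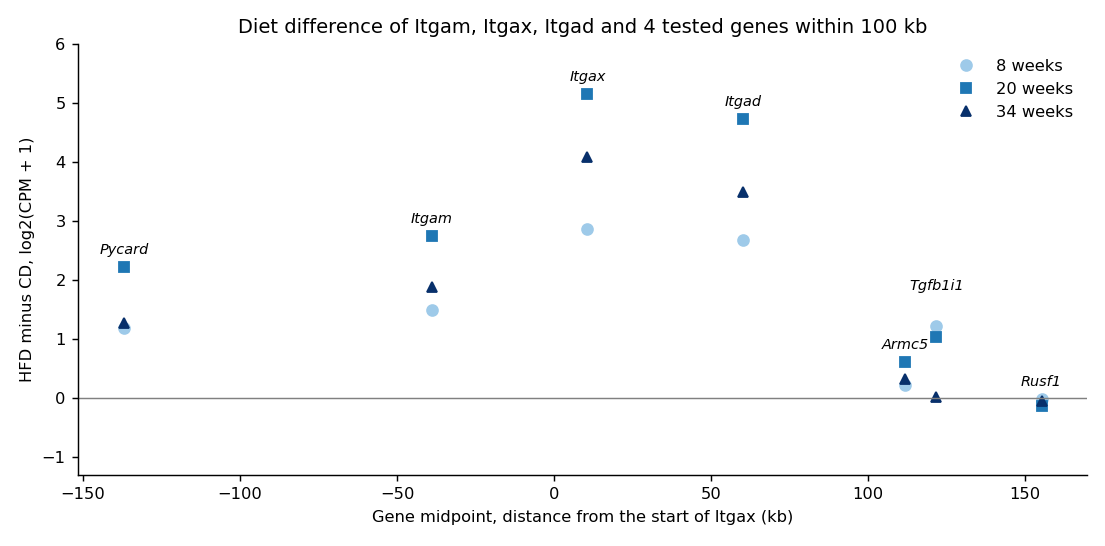
HFD minus CD difference in log2(CPM + 1) at 8, 20 and 34 weeks of Itgam, Itgax, Itgad and 4 tested genes within 100 kb, against the distance of the gene midpoint from the start of Itgax in kb. Itgax (5.15) and Itgad (4.72) stand highest at 20 weeks, and Rusf1 at the right edge lies at -0.13.

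Overlaps with other genes bear on how reads could be assigned. By GENCODE vM21, Itgam shares 3450 exon bases with Gm49368 on the same strand, Itga4 shares 1124 with Cerkl on the opposite strand, and Itgad shares 330 with the pseudogene Gm17831 on its strand and 388, 102 and 70 with 4931431B13Rik, Gm39091 and Cox6a2 on the opposite strand. The methods state that reads were counted only where their overlap with a gene was unambiguous, on GENCODE vM2, which may lack some of these genes. The strand setting of the counting is not given in the sources used here. Whether reads from shared bases were counted or dropped therefore cannot be told. Cerkl reached at most 1.72 CPM and Cox6a2 at most 1.89 CPM in any mouse, and the other 4 were not analysed here.

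Across the 38 mice, the 3 genes most like each integrin by Pearson correlation of log2(CPM + 1) were named as a description. They share the diet and age differences and the composition of the same libraries, so the correlation of deviations from the group means is given as the second value. Itgb2 was closest to Nckap1l, Slc11a1 and Cd84, with r of 0.994, 0.994 and 0.992 (0.976, 0.984 and 0.979 within groups). Itgax was closest to Mmp12, a macrophage elastase, Rnf128 and Stac2, with r of 0.989, 0.984 and 0.984 (0.971, 0.934 and 0.923 within groups). Itgam was closest to Dock2, Arhgef10l and Plcg2 (0.973, 0.972 and 0.969), Itga4 to Adcy7, Dock2 and Myof (0.979, 0.978 and 0.978), and Itgb7 to Galnt6, Itgb2 and Adam8 (0.957 for each).

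Itgad and Itgae stood apart in this respect. The genes closest to Itgad were Fstl1, Serpinb6b and Bcat1, with r of 0.947, 0.943 and 0.938 that fell to 0.712, 0.731 and 0.664 within groups. Its within-group correlation with the pan-leukocyte list was 0.538, against 0.968 for Itgb2 and 0.945 for Itgam. Itgae was closest to Raver2, Fgf11 and Bche, with r of 0.919, 0.904 and 0.904 (0.726, 0.654 and 0.761 within groups). Its within-group correlation was -0.499 with the pan-leukocyte list, -0.442 with the macrophage list and 0.462 with the adipocyte list. With the dendritic cell list it was -0.388, and with the T cell list, whose values were low, it was -0.346. Those of the other 7 genes with the adipocyte list ran from -0.592 (Itga4) to -0.167 (Itgad).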

How the data were processed

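RNA-seq of the adipocyte fraction was analysed in 38 mice in 6 groups of diet and time, for which the labels list 114 samples, 3 technical replicates per mouse. Per the labels and the study's methods, the authors aligned reads of a TruSeq stranded mRNA kit to mm10 with STAR (versions 2.5 and 2.5.2b are named), counted them with featureCounts (Subread 1.5.1) on GENCODE vM2, discarded genes without an Entrez identifier and merged the technical replicates. The methods name TMM scaling by edgeR, but the deposited CPM sum to 1000000 in each mouse, so they were read as plain CPM. All values were whole multiples of 1 read within 0.1 reads, and these recovered reads served the count tests. Depth was 9275711 to 15480388 reads per mouse, and floors and intervals from reads without molecular identifiers cover counting error only. CPM limits the reading further, in that a rise of abundant transcripts lowers all others.

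Values were transformed to log2(CPM + 1), and 10343 genes with a mean above 2.0 were fitted together over the 6 groups (32 residual degrees of freedom) with limma 3.58.1 in R 4.3.3, with the mean-variance trend and two-sided tests. Ratios and Itgal, which was under the filter, were compared by exact permutation of mice. P-values were adjusted by Benjamini-Hochberg, with a threshold of 0.05. The limma, edgeR and DESeq2 fits were run on simulated reads for the diet contrast at 20 weeks only. Their simulated spread was the same for all genes and may be smaller than that of these mice. The exact permutation tests were not run on simulated data. Alternatives were TMM and median-of-ratios factors, no filter, a pseudocount of 0.25, edgeR 4.0.16, DESeq2 1.42.0, the mouse number as a block, a macrophage covariate, array weights, fits within a time and leaving out each mouse. The genes named were the 8 integrins, the 3 largest rises and 2 largest falls called at 20 weeks in each list, Itgb1, Icam1, Vcam1, Cdh1, neighbours within 100 kb, overlapping genes and the 3 most correlated genes. Some genes under this rule are not reported here. Spp1 was followed over all times after its values were seen. The members and lists were chosen with earlier results of these data known. Libraries of the stromal vascular fraction were not analysed here.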

Additional observations from a re-analysis of the deposited data

Results flagged for a closer look

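Of the 48 sets of 1 integrin gene in 1 group, 6 held a mouse whose gap to its nearest neighbour, on the log2(CPM + 1) scale, was a larger part of the group's range than Dixon's 95% value allows, where chance flags about 1 in 20. Mouse 1 of the 20-week CD group was highest in 3 of them, with 146 CPM of Itgax, 4.06 CPM of Itgal and 4.41 CPM of Itgb7. Mouse 6 of the 8-week CD group was highest for Itgb7 with 3.96 CPM, and mouse 2 of the 34-week HFD group was highest for Itgal with 6.08 CPM. Mouse 4 of the 20-week HFD group was lowest for Itga4 with 46.6 CPM. The causes were not tested. Of the named genes outside the 8, the diet difference itself changed with time, by the limma interaction term, for 4. At 20 against 8 weeks the term was 1.44 for Itgav (adjusted p = 0.026) and -0.73 for Itgb1bp1 (adjusted p = 0.049), and at 34 against 20 weeks it was -3.79 for Spp1 (adjusted p = 0.026) and -1.01 for Tgfb1i1 (adjusted p = 0.041). At 34 against 8 weeks it was -0.72 for Itgb1bp1 (adjusted p = 0.011) and -1.19 for Tgfb1i1 (adjusted p = 0.0062). Of all tested genes, 4.49%, 10.5% and 28.8% were called in either direction in these 3 comparisons. The calls of the named genes were not tested against these shares.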

How the results depend on the processing

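The counts of integrin genes called by diet kept to within 1.5 times under every alternative other than the macrophage covariate, which gave 3 at 8 weeks and 4 at 34 weeks. With this covariate the counts over time were 1, 3 and 1 in CD mice (20 against 8, 34 against 20 and 34 against 8 weeks), 0, 1 and 2 in HFD mice, and 2, 2 and 1 for the diet differences between times. Those differences, of which limma called 0 in each, gave 1, 1 and 1 with edgeR, 1, 2 and 1 with DESeq2, 6 and 5 at 20 against 8 and 34 against 20 weeks with array weights, 1 at 20 against 8 weeks with TMM factors and 1 at 34 against 8 weeks with a pseudocount of 0.25. DESeq2 also called 1 gene in CD mice at 20 against 8 weeks. Shares of all tested genes are not given here for the alternatives or for fits without single mice, other than those above for the macrophage covariate. Leaving out single mice gave 0 to 5, 0 to 2 and 0 to 1 genes for the diet differences between times, and 4 to 6, 7 to 7 and 6 to 7 by diet at 8, 20 and 34 weeks.

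Signs turned mainly under the macrophage covariate. Itgae at 8 weeks became 0.023. In CD mice Itgam became -0.026 at 34 against 20 weeks and -0.84 at 34 against 8 weeks, and Itga4 -0.28 at 34 against 8 weeks. In HFD mice Itgam became -0.19 at 20 against 8 weeks and -0.66 at 34 against 8 weeks, with Itga4 at -0.43 and Itgb7 at -0.22. Spp1 became -0.69 at 34 weeks, and Vcam1 -1.01 at 20 weeks and -0.026 at 34 weeks. Vcam1 at 20 weeks was -0.067 with edgeR and -0.028 with DESeq2. With a pseudocount of 0.25, the 8-week ratio differences became 0.014 for Itga4 to Ptprc, 0.17 for Itgb7 to Ptprc and -0.16 for Itga4 to Itgb7, and that of Itgb7 to Ptprc at 20 weeks became 0.39. Without single mice Itgam to Ptprc at 20 weeks ran from -0.19 to 0.084 and Itgb2 to Ptprc at 34 weeks from -0.075 to 0.10. The causes were not tested.

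With the mouse number as a replicate block the counts by diet were 6, 7 and 6, and those of the diet differences between times were 0, 0 and 0. Deviations from the group means of same-numbered mice correlated at -0.51 to 0.53 between diets. Mice with different numbers were not compared, so whether the numbers pair the mice cannot be decided from this range. TMM and median-of-ratios factors moved the median of all genes at 20 weeks by -0.19 and -0.15, against differences of 2.55 or more for the genes that rose. Depth limits Itgad in CD mice, Itgae in HFD mice and Itgal, which rest on few reads.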
